A study of Mus musculus with 2 samples.

Results

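The interferon-stimulated genes described here are a list of 35 symbols, taken by name from the 31053 genes of the deposited gene table, and all 35 were found. The rule takes the genes by name and uses no measured value, but the list was drawn up with earlier results of these data known. The cells came from mouse bone marrow and were sorted as LSK CD150+, a gate around blood stem cells that asks for no lineage markers and for Sca-1, Kit and CD150 on the surface. Single-cell RNA-seq (10x Genomics, about 10000 sorted cells per genotype) gave 1 library with the label RUNX1 WT and 1 with the label RUNX1 KO. The mouse model was Runx1F/F Mx1-Cre, in which loxP sites flank Runx1 and the Cre recombinase is driven by the promoter of Mx1, itself an interferon-stimulated gene and a member of the list. Whether the WT animals carried Cre, whether an interferon inducer was given, the age of the animals and how many animals gave each library are not given in the sources used here.

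Interferons are secreted when a cell senses foreign nucleic acid, and they bind receptors on the same and on neighbouring cells. Type I interferon acts through the kinases Jak1 and Tyk2 on a complex that holds Stat2 and Irf9 and binds a DNA element called the ISRE, while interferon gamma acts mainly through an element called GAS. The genes switched on in this way block viruses at many steps, load peptides for T cells and feed back on the pathway, and stem cells are known to keep part of this programme on without infection.

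The kept cells numbered 9472 in the WT library and 10769 in the KO-labelled library, with 112655858 and 119272042 UMIs (unique molecular identifiers, 1 per captured RNA molecule). The median depth was 9884 and 9310 UMIs per cell. By transcripts of the sex chromosomes, 6690 WT cells (70.6%) and 973 KO-labelled cells (9.04%) were male. Only 9 WT cells (0.095%) but 8927 KO-labelled cells (82.9%) were female, and the rest were not classed. Sex and genotype label thus differed together between the libraries. The libraries shared 33 cell barcodes. Runx1, the targeted gene, stood at 104 CPM in WT and 196 CPM in KO-labelled cells, where CPM is UMIs per 1000000 UMIs of the kept cells; reads from its 3′ end check nothing about a deletion elsewhere in the gene. The level goes against the label, whose correctness is not settled here, so the library is named by its label throughout. If the labels were exchanged, every direction between the libraries would turn. With 1 library per genotype there was no replicate and no test, and every interval below is a 95% interval for counting error only.

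To show the elements by which these genes are known to be switched on, the start regions of 5 members are printed here, as 150 bases upstream of the RefSeq transcription start, 5′ to 3′ on the gene's strand. Ifit1, Rsad2 and Gbp2 were at least 1.5-fold higher in cells with UMIs of Procr, a stem cell marker, than in cells without, in both libraries. This depended on the comparison cells, as given below. Isg15 gives the pathway its best known product, and Psmb8 was the most abundant member. Capitals mark matches to the ISRE core, on either strand, in the first 4 and to the GAS core in Psmb8. Ifit1 lies at chr19:34640739-34640888 on the plus strand, Rsad2 at chr12:26456453-26456602 on the minus strand, Gbp2 at chr3:142620513-142620662 on the plus strand, Isg15 at chr4:156200819-156200968 on the minus strand and Psmb8 at chr17:34198045-34198194 on the plus strand, all from RefSeq on GRCm38.p6.
Ifit1: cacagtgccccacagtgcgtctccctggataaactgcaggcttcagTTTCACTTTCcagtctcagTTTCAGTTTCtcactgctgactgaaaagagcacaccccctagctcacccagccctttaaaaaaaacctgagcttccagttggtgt
Rsad2: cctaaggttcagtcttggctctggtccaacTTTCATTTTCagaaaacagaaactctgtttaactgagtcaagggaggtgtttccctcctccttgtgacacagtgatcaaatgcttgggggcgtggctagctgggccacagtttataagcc
Gbp2: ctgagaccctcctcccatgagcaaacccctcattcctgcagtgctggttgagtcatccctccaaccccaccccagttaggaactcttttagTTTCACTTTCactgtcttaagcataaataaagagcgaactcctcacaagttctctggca
Isg15: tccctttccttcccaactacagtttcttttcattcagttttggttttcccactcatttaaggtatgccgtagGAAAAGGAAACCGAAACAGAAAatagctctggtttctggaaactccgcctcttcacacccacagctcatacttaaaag
Psmb8: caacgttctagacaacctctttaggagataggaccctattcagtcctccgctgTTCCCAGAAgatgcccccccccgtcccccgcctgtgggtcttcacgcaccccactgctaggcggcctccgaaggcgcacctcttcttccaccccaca

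The ISRE core was searched as GAAA, any 2 bases and GAAA again, and the GAS core as TTCNNNGAA, on both strands, in windows from 250 bases before to 50 bases after each RefSeq start, and a stretch could count for both. Windows were found for 23 of the 35 members. Of these, 12 (52.2%) held an ISRE match, against 3.99% of 27025 genes with a window, and 7 (30.4%) held a GAS match, against 9.55%. Ifit1 had ISRE matches that begin 104 and 85 bases before the start, and Isg15 had 3 that overlap, beginning 78, 72 and 66 bases before it. In Rsad2 the match began 120 bases and in Gbp2 59 bases before the start, and the GAS match of Psmb8 began 97 bases before it. Members with no window were Ifi27l2a, Ifi27, Oas2, Usp18, Rtp4, Ifi204, Iigp1, Mx1, Zbp1, Dhx58, Parp14 and Ly6e. A match of letters is a description of the sequence and does not show that a factor binds there.

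In the genome many members sit beside relatives of the same family. The starts of this annotation (GENCODE M21) can differ from those of RefSeq: the stretches printed above for Ifit1 and Gbp2 reach into the annotated gene, and that of Psmb8 lies wholly within it. On chromosome 17 of GRCm38, Psmb9 (34181987 to 34187764, minus strand), Tap1 (34187553 to 34197225, plus strand) and Psmb8 (34197721 to 34201454, plus strand) stand in a row, and Psmb9 and Tap1 overlap at their starts. Ifit2 (34550694 to 34576419), Ifit3 (34583531 to 34588731) and Ifit1 (34640871 to 34650009) lie on the plus strand of chromosome 19, and Gbp7, Gbp3 and Gbp2 lie between 142530342 and 142638008 on the plus strand of chromosome 3. Reads of such near-identical relatives can be split or lost in counting, so values of the Ifit, Gbp, Oas, Ifi27 and p200 families are uncertain to that extent.

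The summed level of the 35 members was nearly the same in the 2 libraries. WT cells had 2249 CPM (2239.9 to 2257) and KO-labelled cells 2273 CPM (2265 to 2282), a ratio of 1.01 (1.006 to 1.017). Most of the sum came from a few abundant members. Psmb8, a catalytic subunit of the immunoproteasome, gave 26.3% of the members' UMIs in the WT library and 26.9% in the KO-labelled library, and Ly6e, a lipid-anchored surface protein, gave 19.2% and 19.6%. Together with Psmb9, another immunoproteasome subunit, they made up 55.3% and 56.1% of the sum, so the sum mainly reports these 3 genes. Because the kit tags 1 end of each transcript, levels were not divided by transcript length.

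Gene by gene, the differences between the libraries were small. A level of 20 CPM in 1 of the libraries was reached by 15 members. Of these, 0 were at least 1.5-fold higher with the KO label, against 2.25% of 5904 genes at that level, and 0 were at least 1.5-fold lower, against 2.03%. Their median log2 ratio was 0.02, against -0.07 for all those genes. At a floor of 5 CPM, 31 members entered. Of these, 0 were at least 1.5-fold higher (2.96% of 9572 genes) and 2, Iigp1 and Ifit2, at least 1.5-fold lower (3.85%). A share of 2 in 31 is near that background and says nothing particular about the members. The counting interval lay wholly above 1 for 12 members, wholly below 1 for 12 and held 1 for 7, which says only that the UMIs were many, since the spread between animals was not measured.

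Iigp1, an immunity-related GTPase that attacks the vacuoles of intracellular parasites, stood at 19.0 CPM in WT and 12.2 CPM in KO-labelled cells, with a ratio of 0.645 (0.603 to 0.690). That ratio was 0.874 with at least 1000 genes and at most 5% mitochondrial UMIs per cell, and 0.481 in male cells only, so the size of the difference moved with which cells were counted. Ifit2, which binds foreign RNA and blocks its translation, stood at 16 and 10.0 CPM, a ratio of 0.626 (0.582 to 0.674). Its ratio was 0.639 under the same stricter filter and 0.640 in male cells. Its neighbour Ifit1, a sensor of RNA caps that lack methylation, was at 5.91 and 5.43 CPM with an interval that held 1 (0.82 to 1.03).

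The largest ratios above 1 were those of Irf7 and Ifi47, both short of 1.5. Irf7, the transcription factor that drives the interferon alpha genes, was at 10.2 and 13.6 CPM (ratio 1.33, 1.23 to 1.44). Ifi47, an immunity-related GTPase, was at 81.8 and 108 CPM (ratio 1.32, 1.29 to 1.36). Among the other abundant members, Psmb8 stood at 590.4 and 611 CPM, Ly6e at 431 and 446 CPM, Psmb9 at 222 and 218 CPM and Tap1, the peptide transporter of antigen presentation, at 117 and 120.2 CPM. These 4 had ratios between 0.98 and 1.04. Isg15, the ubiquitin-like protein that is attached to other proteins, was at 23.0 and 19.3 CPM (ratio 0.836, 0.790 to 0.885), and Bst2, the tether that holds budding virus to the cell, at 123 and 106 CPM (ratio 0.859, 0.838 to 0.880).

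Mx1, the antiviral GTPase whose promoter drives Cre in this model, was among the least abundant members. It had 92 UMIs in all WT cells and 60 in all KO-labelled cells, or 0.817 and 0.503 CPM. Ifit3, Oas2 and Ifi204 were likewise under 5 CPM in both libraries and are left out of counts at that floor over whole libraries. No member was at 0 in either library.

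**Figure D1:**
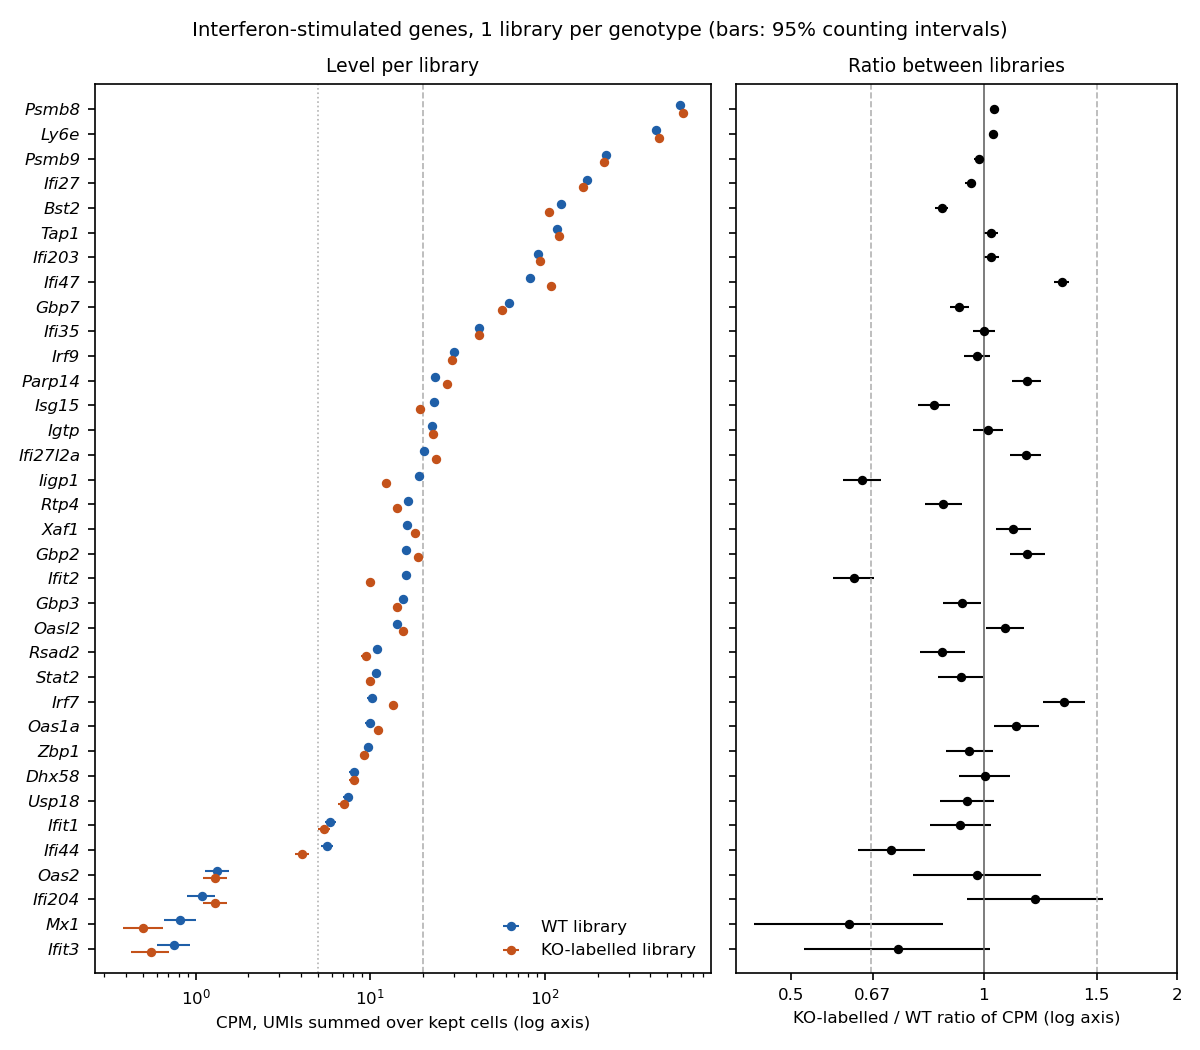
Left, the level of each of the 35 members in CPM (log axis) in the WT library (blue) and the KO-labelled library (orange), with dotted and dashed lines at 5 and 20 CPM. Right, the ratio KO-labelled over WT (log axis), with dashed lines at 1.5-fold either way; bars are 95% counting intervals, and among members at 5 CPM or more only Iigp1 and Ifit2 lie past a dashed line.

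To see where in the sort the members were expressed, cells were put in classes by 1 marker each: Procr (endothelial protein C receptor, a stem cell marker), Pf4 (platelet factor 4, megakaryocytic), Mpo (myeloperoxidase, granulocyte and monocyte lineage) and Car1 (carbonic anhydrase, erythroid lineage). A cell was positive with at least 1 UMI, and for Pf4 with at least 3 UMIs, and could be in several classes. The Procr class held 938 WT and 788 KO-labelled cells, the Pf4 class 3178 and 2042, the Mpo class 2018 and 2551 and the Car1 class 2379 and 2302, which left 2879 and 4480 cells positive for none. The Procr class fitted its name in the WT library, where the other 7 genes of a stem cell marker list were all higher than in Procr-negative cells, with Mecom at a ratio of 3.0 and Hlf at 3.78. In the KO-labelled library 5 of these 7 were higher, the exceptions being Slamf1 (0.594) and Ctnnal1 (0.737). The class is a range of 1 gene and not a cell type.

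The members' sum was highest in Procr-positive cells and in cells positive for none of the markers. In the WT library it was 2685 CPM in the Procr class, 2008 CPM in the Pf4 class, 2296 CPM in the Mpo class, 1947 CPM in the Car1 class and 2692 CPM in cells with none. In the KO-labelled library the same sums were 2891, 2017, 2265, 1820.3 and 2589 CPM. The Car1 class was lowest in both libraries. Of members at 5 CPM or more in the library as a whole, the Procr class was the highest of the 4 marker classes for 24 of 31 in WT, against 38.9% of 9416 genes, and for 25 of 30 with the KO label, against 37.8% of 9238 genes.

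Cells with Procr UMIs were shallower than the rest, with a median of 7690.5 UMIs against 10094.5 in the WT library and 7776.5 against 9428 in the KO-labelled library. Their median mitochondrial share was 5.71% against 4.88% in WT and 4.85% against 4.32% in the KO-labelled library. The results on this class are therefore also given for cells of 5000 to 10000 UMIs.

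A member was said to mark Procr-positive cells where its CPM there was at least 1.5 times that in Procr-negative cells, with a lower bound above 1 and at least 5 CPM in either. By this rule 16 of 31 members marked them in the WT library, where 10.9% of 9935 genes did, and 12 of 31 in the KO-labelled library, where 10.4% of 9705 genes did. A total of 11 marked them in both. Since a gene can reach the floor through the Procr class alone, the counts were also taken over genes at 5 CPM in the library as a whole. They were then 16 of 31 members in WT (7.8% of 9419 genes) and 11 of 30 with the KO label (7.47% of 9241 genes), where Ifi44 dropped out. None of the 31 was at least 1.5-fold lower in either library, where 3.91% and 3.89% of genes were. The median log2 ratio of the members was 0.60 in WT and 0.41 in the KO-labelled library, against 0.03 and 0.05 for all genes.

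The choice of comparison cells mattered. Against cells positive for none of the 4 markers, only Ifi44, Iigp1 and Gbp3 marked the Procr class in WT (3 of 31, with 4.59% of genes), and Ifit1, Oasl2, Rtp4, Ifi44, Ifi203 and Iigp1 in the KO-labelled library (6 of 31, with 5.9% of genes). Ifi44 and Iigp1 passed against both kinds of cells in both libraries. Against Procr-negative cells with the KO label, Ifi44 met the floor only through the Procr class. Of the 16 WT members, 13 thus did not pass against unmarked cells. Within 5000 to 10000 UMIs, 13 of 32 members marked the class in WT (11.9% of genes) and 10 of 32 in the KO-labelled library (10.5%). Of these, 12 in WT and 9 with the KO label had also marked it over all depths. With at least 1000 genes and at most 5% mitochondrial UMIs, 10 of 31 did in WT, from 208 Procr-positive cells. In the KO-labelled library 7 of 31 did, from 475 such cells. The share of all genes was not counted under this filter.

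**Figure D2:**
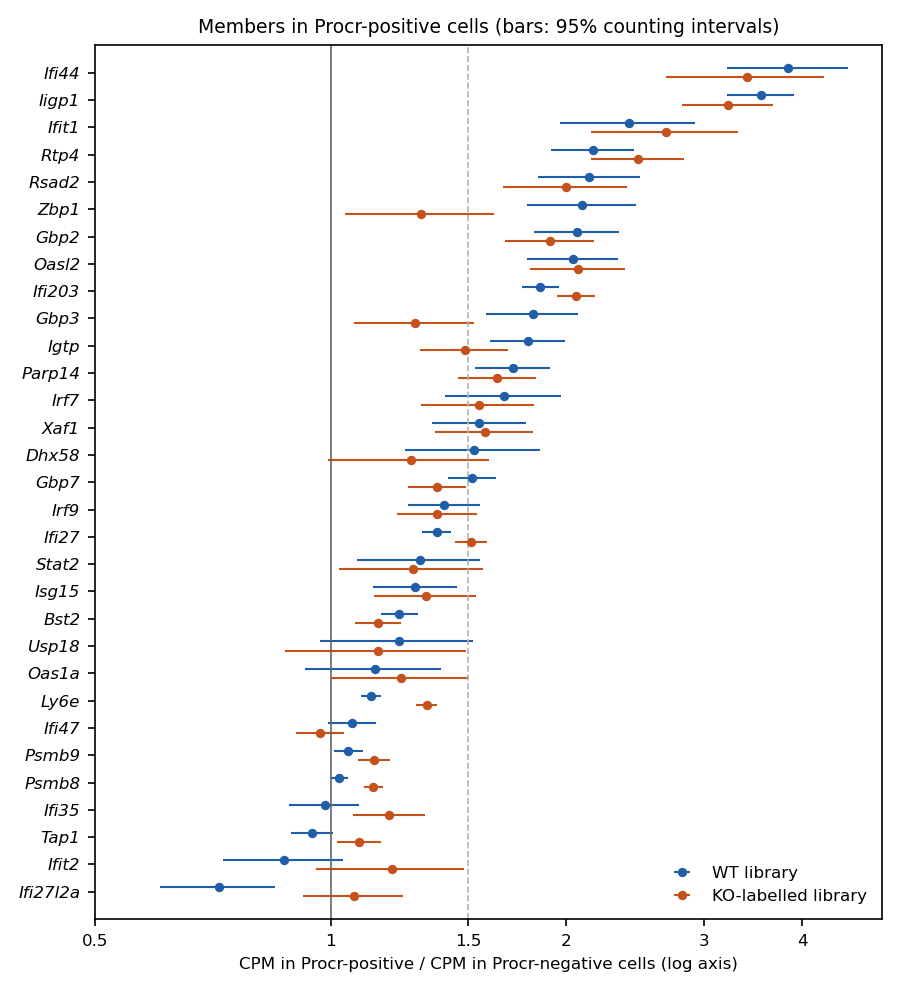
The ratio of CPM in Procr-positive to Procr-negative cells (log axis) for the 31 members at 5 CPM or more, in the WT library (blue) and the KO-labelled library (orange), with a dashed line at 1.5 and bars for 95% counting intervals. Ifi44 and Iigp1 lie furthest to the right in both libraries, while the antigen-processing genes Psmb8, Psmb9 and Tap1 lie near 1.

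Class levels are given as CPM in Procr-, Pf4-, Mpo- and Car1-positive cells, in that order. Cells with none of these markers are outside this order. As given above, many marking members did not pass against them. Ifi44 encodes a cytoplasmic protein linked to reduced cell growth. Its Procr ratio was the highest of the members counted, 3.84 (3.21 to 4.57) in WT and 3.40 (2.68 to 4.27) in the KO-labelled library. Its levels were 17.4, 4.32, 4.54 and 3.95 CPM in WT and 12, 3.6, 2.85 and 2.22 CPM in the KO-labelled library. Of these 4 classes only the Procr class was above 5 CPM. With the KO label Ifi44 was at 4.07 CPM in the library as a whole, so it met the floor only through that class. Iigp1 stood at 54.8, 14.3, 11.5 and 11.7 CPM in WT and at 34.3, 9.84, 7.97 and 7.83 CPM in the KO-labelled library. The Procr class was thus over 3 times as high as each of the other 3 marker classes in both libraries, with Procr ratios of 3.54 (3.21 to 3.91) and 3.22 (2.81 to 3.68).

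Of the 14 antiviral effectors, 11 were at 5 CPM, and 7 of these marked Procr-positive cells in each library. The shares of all genes that did so were those given above, 10.9% and 10.4%. The 7 with the KO label include Ifi44, at 4.07 CPM in that library as a whole. It met the floor there only through the Procr class. Ifit1 was at 12.6, 4.56, 4.41 and 4.26 CPM in WT and at 13.1, 3.75, 3.97 and 4.05 CPM in the KO-labelled library. Rtp4, a receptor-transporting protein that inhibits flaviviruses, was at 32.1, 10.8, 13.3 and 13.2 CPM and at 31.8, 8.82, 11.7 and 11.2 CPM. Rsad2 (viperin), which makes a chain-terminating nucleotide, was at 21.3, 9.73, 6.13 and 9.83 CPM and at 17.7, 9.37, 6.01 and 6.95 CPM. In these 3 genes the Procr class was the highest of the marker classes, and the order of the others changed from gene to gene. Cells with none of the markers came next, in WT and with the KO label. Ifit1 stood there at 9.02 and 6.88 CPM, Rtp4 at 24.8 and 18.0 CPM and Rsad2 at 15.2 and 12.2 CPM. Oasl2, of the oligoadenylate synthetase family, was at 26.5, 12.8, 10.8 and 10.3 CPM in WT and 29.6, 14.9, 12.2 and 9.81 CPM in the KO-labelled library. Parp14, an ADP-ribosyltransferase, was at 37.7, 20.7, 21.3 and 19.6 CPM and at 42.9, 24.2, 24.1 and 20.5 CPM. Xaf1, which opposes an inhibitor of apoptosis, was at 23.8, 13.9, 14.8 and 14.1 CPM and at 27.2, 17.3, 15.2 and 14.4 CPM. Ifit1 and Xaf1 were short of 1.5 in WT cells of 5000 to 10000 UMIs, at 1.28 and 1.45.

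Not all effectors had this pattern. Bst2 was at 147, 103, 128 and 116 CPM in WT and at 120.2, 90.2, 111 and 94.2 CPM in the KO-labelled library, with Procr ratios of 1.22 and 1.15. Ifi35, a partner of the Nmi protein, was at 40.9, 39.7, 38.7 and 41.2 CPM and at 48.8, 36.4, 40.4 and 48.8 CPM. It was nearly level across the WT classes. Ifit2 was highest in the Pf4 class in both libraries, at 18.6 CPM in WT and 13.4 CPM in the KO-labelled library, so it did not share the pattern of its neighbour Ifit1. Oas1a and Oas2, synthetases of the same family as Oasl2, differed in level: Oas1a had Procr ratios of 1.14 and 1.23, and Oas2 was too low to be counted.

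Among the 6 GTPases, 5 marked Procr-positive cells in WT and 2, Iigp1 and Gbp2, in the KO-labelled library. The shares of all genes that did so were 10.9% and 10.4%. Against cells with none of the markers, only Iigp1 and Gbp3 among the GTPases passed in WT, and only Iigp1 with the KO label. Gbp2, a guanylate-binding protein that coats pathogen membranes, was at 30.3, 13.3, 12.6 and 13.9 CPM in WT and at 33.8, 16.6, 14.7 and 14.1 CPM in the KO-labelled library. Gbp3 was at 25.8, 11.1, 19.5 and 11.1 CPM in WT and at 17.8, 8.78, 20.9 and 11.1 CPM in the KO-labelled library, where the Mpo class was the higher. Gbp7 was at 89.6, 61.1, 49.7 and 55.9 CPM and at 75.7, 57.9, 48.6 and 50.2 CPM. Igtp, an immunity-related GTPase, was at 37.7, 20.8, 18.0 and 19.8 CPM and at 32.9, 22.7, 18.6 and 21.5 CPM, with a KO-labelled Procr ratio of 1.48, just short of the rule. Ifi47 was the exception among the GTPases. It was at 86.7, 93.9, 76.6 and 65.0 CPM in WT and at 105, 129, 95.5 and 82.0 CPM in the KO-labelled library, highest in the Pf4 class.

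Ifi203, a nuclear DNA-binding protein of the p200 family, marked the Procr class in both libraries. It was at 157, 73.2, 83.0 and 56.7 CPM in WT and at 181, 78.7, 88.7 and 50.4 CPM in the KO-labelled library. Unmarked cells had 140.2 CPM of it in WT and 119.8 CPM with the KO label. The sensors were Zbp1, which binds left-handed nucleic acid, and Dhx58, an RNA helicase of the RIG-I family. Zbp1 was at 18.6, 6.97, 7.43 and 8.15 CPM in WT and at 11.8, 5.95, 6.96 and 8.32 CPM in the KO-labelled library. Dhx58 was at 11.7, 6.82, 8.04 and 7.08 CPM and at 10.0, 6.28, 7.82 and 7.10 CPM. Both marked the Procr class in WT, as 10.9% of all genes did, and not in the KO-labelled library. Whether the ratios differ between the libraries was not tested.

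The Procr class was marked by 10.9% of all genes in WT and 10.4% with the KO label. Of the 3 transcription factors, only Irf7 marked the class. It was at 16, 6.56, 8.01 and 11.0 CPM in WT and at 20.2, 9.66, 10.7 and 14.2 CPM in the KO-labelled library. Irf9, the DNA-binding part of the complex that reads the ISRE, was at 40.8, 24.8, 26.0 and 30 CPM and at 39.4, 23.7, 27.0 and 29.9 CPM, with Procr ratios of 1.4 and 1.37. Its partner Stat2 had ratios of 1.30 and 1.27. All 3 were thus higher in the Procr class, and 2 of them by less than the rule asks.

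The antigen-processing members had Procr ratios near 1. Psmb8 was at 603, 547, 633 and 495 CPM in WT and at 687, 559.7, 635 and 467 CPM in the KO-labelled library. Psmb9 was at 233, 209.7, 222 and 196 CPM and at 245, 209, 215 and 172 CPM. Tap1 was at 111, 117, 113 and 110.2 CPM and at 130.0, 118, 111 and 103 CPM. They varied among the other classes, and Psmb8 and Psmb9 were lowest in the Car1 class in both libraries. Each was highest in cells with none of the markers, in WT and with the KO label. Psmb8 stood there at 686 and 691 CPM, Psmb9 at 260 and 248 CPM and Tap1 at 131 and 138 CPM. The Procr ratios of these 3 were between 0.95 and 1.05 in WT and between 1.09 and 1.14 in the KO-labelled library. Ly6e was highest in the Mpo class in WT and in the Procr class in the KO-labelled library, at 481, 348, 521 and 391 CPM and at 579, 326, 501 and 367 CPM.

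Isg15 was at 28.8, 19.2, 18.5 and 26.6 CPM in WT and at 24.9, 16.1, 14.9 and 19.1 CPM in the KO-labelled library, and its Procr ratios of 1.28 and 1.32 were under the rule. Usp18, the protease that removes Isg15 from proteins and damps the interferon receptor, had ratios of 1.22 and 1.15 with intervals that held 1. The small membrane proteins Ifi27 and Ifi27l2a are neighbours on chromosome 12 and had different patterns. Ifi27 was at 229, 155, 165 and 152 CPM in WT and at 242, 151, 152 and 139.6 CPM in the KO-labelled library, and marked the class in the latter alone (1.51 against 1.37). Ifi27l2a was at 15, 10.1, 17.9 and 12.4 CPM and at 25.2, 11.3, 24.8 and 11.9 CPM, and its highest level was in cells with none of the markers, at 44.7 and 35.2 CPM.

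**Figure D3:**
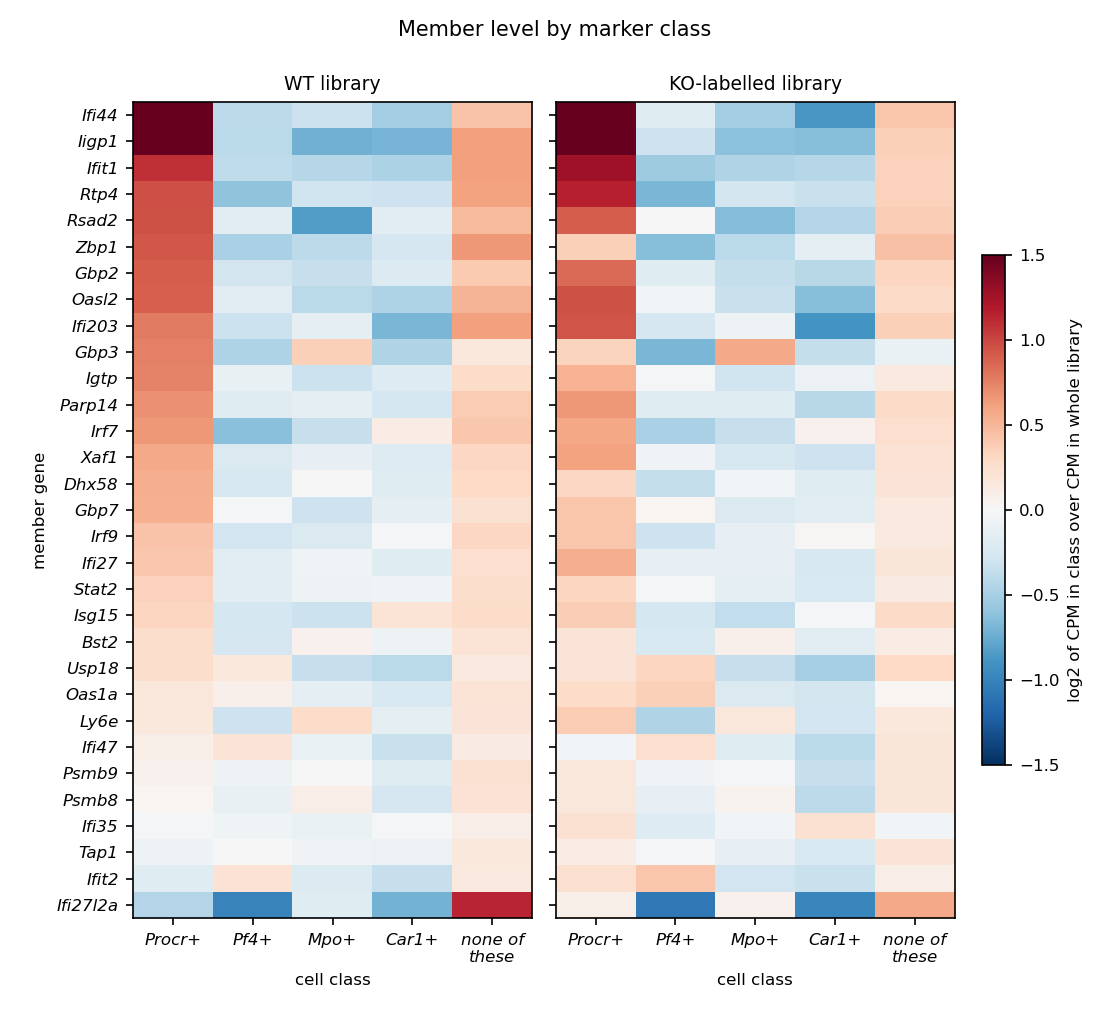
Colour gives the log2 of a member's CPM in a class over its CPM in the whole library, for 31 members (rows) in 5 classes (columns) of the WT library (left) and the KO-labelled library (right); the colour scale ends at 1.5 either way. Rows are sorted by the WT Procr ratio, and the Procr column is reddest at the top, with paler red in the column of cells positive for none of the markers.

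The 16 members that marked Procr-positive WT cells were also higher in cells with more Procr UMIs. Their summed level was 321 CPM in WT cells with no Procr UMI, 581 CPM with 1 and 706 CPM with at least 2. In the KO-labelled library, which was not used to choose the 16, the sums were 326, 574 and 658 CPM. The other 19 members stood at 1885, 2078 and 2052 CPM in WT and at 1904, 2310.3 and 2260.1 CPM in the KO-labelled library. The other 19 were thus not higher with at least 2 Procr UMIs than with 1. The WT values rest on the cells that chose the 16 and are a description.

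Of the promoter windows, 11 of the 16 marking members had one, and 7 of these (63.6%) held an ISRE match and 2 a GAS match. Of the 15 members counted that did not mark the class, 11 had a window, and 4 (36.4%) held an ISRE match and 5 (45.5%) a GAS match. The numbers are small and were not tested. Rsad2, Ifit1 and Gbp2, printed above, were among the former, and Psmb8 and Isg15 among the latter.

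Within classes, the libraries differed in few members. In the Procr class 1 of 31 members was at least 1.5-fold higher in the KO-labelled library (3.96% of 9949 genes) and 2 at least 1.5-fold lower (7.24%). The higher one was Ifi27l2a, at 15 CPM in WT and 25.2 CPM in the KO-labelled library (ratio 1.68, 1.35 to 2.09). The lower ones were Iigp1 (54.8 and 34.3 CPM, ratio 0.627, 0.540 to 0.727) and Zbp1 (18.6 and 11.8 CPM, ratio 0.637, 0.491 to 0.821). The median log2 ratio of the members in this class was 0.05, against -0.07 for all genes. These counts are near or under the background.

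Iigp1 was lower in the KO-labelled library in each of the classes: the ratio was 0.689 in the Pf4 class, 0.694 in the Mpo class, 0.668 in the Car1 class and 0.541 in cells with none. With Mpo and Car1 asked for at 3 UMIs, the ratio in the Car1 class was 1.04, so the direction there depended on that threshold. Ifit2 was lower as well, with 0.838 in the Procr class (0.638 to 1.10, an interval that held 1), 0.719 in the Pf4 class, 0.592 in the Mpo class, 0.634 in the Car1 class and 0.606 in cells with none. Outside the Procr class, 0 members of 29 passed 1.5-fold in the Pf4 class (3.51% higher and 4.46% lower among all genes). In the Mpo class 1 of 29 was lower (3.76%) and 0 higher (2.74%), in the Car1 class 1 of 29 lower (5.23%) and 0 higher (2.48%), and in cells with none 2 of 31 lower (6.21%) and 0 higher (2.64%).

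To compare cells, 3000 UMIs were drawn from each, and cells of lower depth (155 in WT, 91 with the KO label) were set aside. A cell then held 7.14 ± 3.95 member UMIs (mean and SD over 9317 cells) in the WT library and 7.23 ± 3.95 over 10678 cells in the KO-labelled library, with a median of 7 in both. Without thinning, the mean per cell was lower in the KO-labelled library (ratio 0.941), as its cells were shallower. Nearly every cell had some. Only 44 WT cells (0.472%, 0.343 to 0.633%) and 78 KO-labelled cells (0.730%, 0.578 to 0.911%) had no member UMI at this depth.

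The sum was not carried by few cells. The 1% of cells with the most member UMIs held 3.39% of them in WT and 3.43% in the KO-labelled library, the top 5% held 12.2% and 12%, and the top 10% held 21.0% and 20.8%. The variance over the mean was 2.19 and 2.16, where counts at 1 shared rate would give 1. A thin tail of cells stood far above the rest. In each library 11 cells had 30 or more member UMIs of 3000, with a maximum of 94 in WT and 81 in the KO-labelled library.

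**Figure D4:**
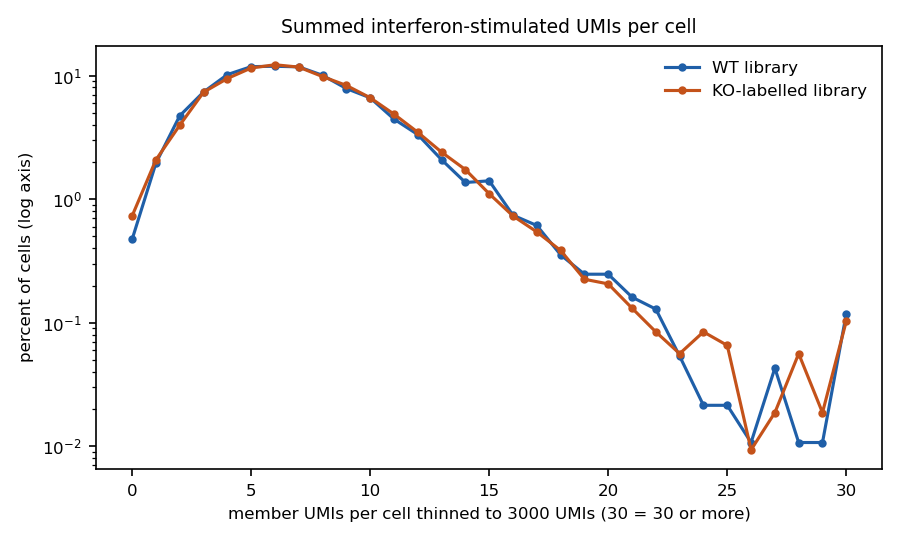
Percent of cells (log axis) by the number of member UMIs per cell after thinning to 3000 UMIs, for 9317 WT cells (blue) and 10678 KO-labelled cells (orange); the last point pools cells with 30 or more. Both curves peak at 5 to 7 UMIs and run together, with a tail of 11 cells at the last point in each library.

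The cells in the tail carried many different members. The highest WT cell had UMIs of 28 of the 35 members, led by Ifit2 and Ifi203 with 11 UMIs each and Rsad2 with 10. The next WT cell had 22 members, led by Ifit1 with 18 UMIs and Rsad2 with 15. The highest KO-labelled cell had 20 members, led by Ly6e with 18 UMIs, Ifi27l2a with 14 and Irf7 with 8, and also 21 UMIs of the monocyte and macrophage marker list. Across libraries a typical cell had 5 (WT) or 4 (KO-labelled) different members. Of the 10 highest WT cells, 5 were in no marker class, 4 in the Car1 class and 1 in the Pf4 class. Of the 10 highest KO-labelled cells, 6 were in no class, 2 in the Procr class, 1 in the Mpo class and 1 in the Car1 class.

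The members differed in how evenly their UMIs were spread over cells. The 10 cells richest in Psmb8 held 0.615% of its UMIs in WT and 0.517% in the KO-labelled library. For Ifit1 the 10 richest cells held 16.7% and 12.7%, for Mx1 22.8% and 30%, and for Ifit3 32.9% and 54.5%. For Ifit3 and Mx1, 10 cells thus gave a large part of the library level, but both were scarce. Mx1 had UMIs in 80 WT and 52 KO-labelled cells, with at most 3 in any cell, and Ifit3 in 67 and 40. Among so few positive cells, any 10 hold a large share, so these shares do not measure uneven spread alone. After thinning, a variance of at least 1.5 times the mean was found for 4 of 31 members in WT (2.41% of 9527 genes) and 4 of 30 in the KO-labelled library (3.18% of 9314 genes). These were Ifit1, Ifi27l2a and Iigp1 in both, with Rsad2 in WT and Isg15 in the KO-labelled library.

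To see whether members were high in the same cells, each member was compared between the 5% of cells with the most UMIs of the other 34 members and the rest. A member was counted as high with the others where its CPM was at least 1.5 times higher there, with a lower bound above 1 and at least 5 CPM. This held for 30 of 35 members in WT and 28 of 33 in the KO-labelled library, and for 27 in both. Some members reached the floor only through the top cells and so could only pass. These were Ifit3, Mx1, Ifi204 and Oas2 in WT, and Ifit3, Ifi204 and Ifi44 with the KO label. Over members at 5 CPM in the library as a whole, 26 of 31 passed in WT (6.35% of 9389 other genes) and 25 of 30 with the KO label (6.44% of 9212). Among genes that are not members, 9.04% of 9836 and 9.57% of 9696 passed the first rule between the 5% of cells with most UMIs of all members and the rest. The border lay at 14 UMIs of all members, and 452 WT and 559 KO-labelled cells lay within 1 UMI of it.

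The highest ratios were those of scarce members. Ifit3 was at 7.50 CPM in the top cells and 0.473 CPM in the rest in WT (ratio 15.9, 9.96 to 24.9) and at 7.76 and 0.245 CPM in the KO-labelled library (31.7, 18.9 to 53.8). Mx1 was at 8.39 and 0.501 CPM in WT (16.7, 10.8 to 25.8) and at 4.83 and 0.315 CPM in the KO-labelled library, there under the floor. Ifit1 was at 41.0 and 4.43 CPM in WT (9.27) and at 29.8 and 4.39 CPM in the KO-labelled library (6.8). Ifi204, of the p200 family, was at 7.52 and 0.807 CPM in WT (9.32) and at 13.7 and 0.709 CPM in the KO-labelled library (19.3). Ifit3, Mx1 and Ifi204, with the highest ratios in both libraries, were all under 5 CPM in the libraries as a whole.

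Irf7 was at 53.4 CPM in the top cells and 8.32 CPM in the rest in WT (6.42) and at 54.3 and 11.8 CPM in the KO-labelled library (4.61). Isg15 was at 99.9 and 19.8 CPM (5.06) and at 73.1 and 16.6 CPM (4.39), and Iigp1 at 85.8 and 16 CPM (5.35) and at 77.0 and 9.49 CPM (8.12). All 3 were at least 4.39 times as high in the top cells of both libraries. The members at 5 CPM that did not pass were Ifit2, Ifi27, Ifi47, Psmb8 and Tap1 in WT and Ifi27, Ifi47, Psmb8, Psmb9 and Tap1 in the KO-labelled library. Psmb8, at 787 CPM in the top cells and 583 CPM in the rest in WT, had a ratio of 1.35. With the 6 most abundant members left out of the score, 30 members passed in WT and 28 in the KO-labelled library. Both counts include Ifit3, Mx1, Ifi204 and Oas2, which were under 5 CPM in the libraries as a whole. The count with the KO label also includes Ifi44, at 4.07 CPM in that library as a whole. The share of all genes was not counted with this score.

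**Figure D5:**
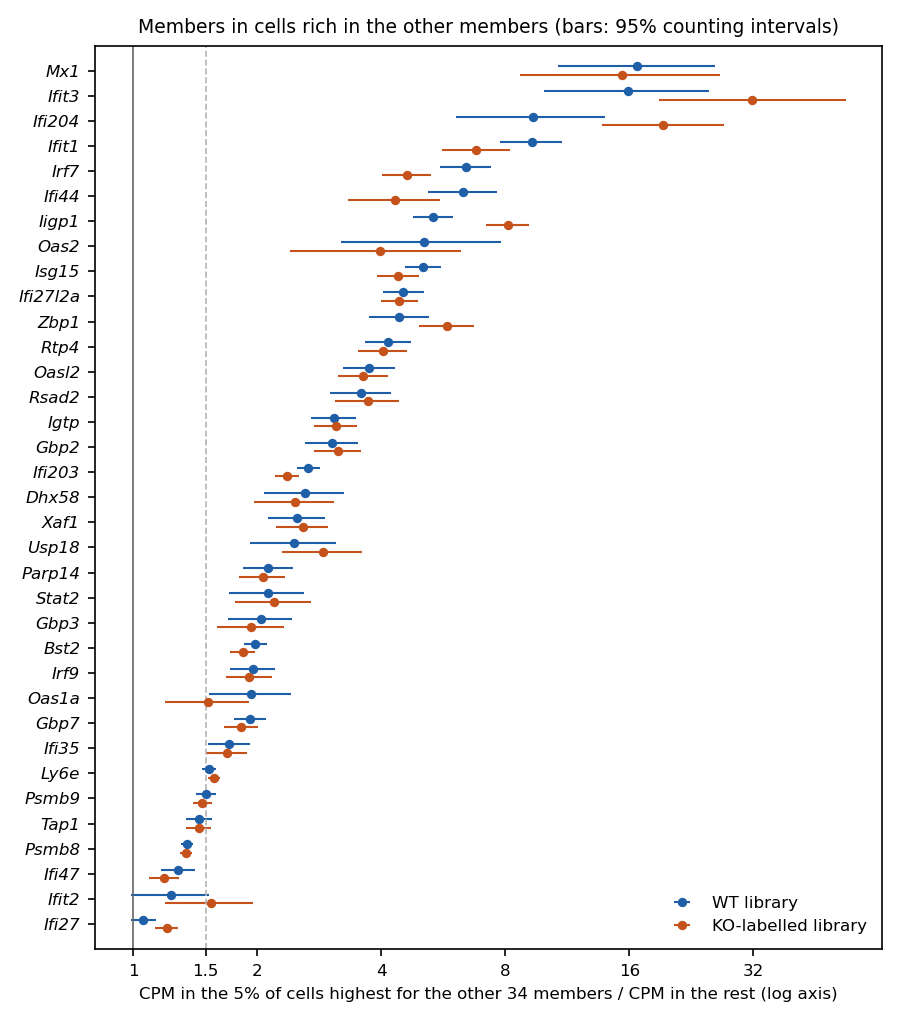
For each member, CPM in the 5% of cells with the most UMIs of the other 34 members over CPM in the remaining cells (log axis), in the WT library (blue) and the KO-labelled library (orange), with a dashed line at 1.5 and 95% counting intervals. Mx1, Ifit3 and Ifi204 lie at the top with wide intervals, and Ifi27, Ifit2, Ifi47 and Psmb8 lie at the bottom, below 1.5 in WT; Ifit2 is at 1.54 with the KO label.

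The cells rich in member UMIs were a mixture. Of the 466 WT and 534 KO-labelled cells in the top 5% by all members, 16.1% (12.9 to 19.8%) and 13.1% (10.4 to 16.3%) had Procr UMIs, against 9.66% and 7.02% of the rest. The Pf4 class made up 13.7% and 7.68% of them, against 35% and 19.7% of the rest. Cells with none of the markers made up 47.9% and 56.2%, against 28.8% and 40.5%. The top cells were shallower before thinning, with median depths of 7804.5 against 10143 UMIs in WT and 7883.5 against 9455 UMIs in the KO-labelled library. Procr-positive cells were thus a larger share of the top cells, most of which had no Procr UMI.

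Marker lists of other cell types differed in direction. The 7 genes of the monocyte and macrophage list summed to 416 CPM in the top cells and 101 CPM in the rest in WT, and to 561 and 165 CPM in the KO-labelled library, with none of the 7 at 0. Within it, C1qb was lower in the WT top cells (3.53 against 4.63 CPM). The neutrophil list was lower in the top cells, at 16.1 and 102 CPM and at 30 and 608 CPM, as was the granulocyte and monocyte progenitor list, at 1455 and 1692 CPM and at 676 and 2096 CPM. The basophil list was lower too, at 15.4 and 242 CPM in WT and at 0.63 and 1.01 CPM with the KO label. The 5 genes of the plasmacytoid dendritic list summed to 337 and 118 CPM and to 266 and 103 CPM. Bst2, a member, gave most of that sum, Klk1 had no UMI in the top cells of either library, and Siglech was at 7.94 CPM in WT top cells and 0.111 CPM in the rest. The stem list summed to 373 and 233 CPM and to 260.0 and 192 CPM. Within it, Ctnnal1 (ratios 0.742 and 0.629) and Slamf1 (0.921 and 0.623) were lower in the top cells of both libraries. Mllt3 was lower with the KO label (0.899). The megakaryocyte list was lower in the top cells, at 741 and 1948 CPM and at 369.8 and 1086 CPM. Within it, Selp had a ratio of 0.919 in WT and was higher in the top cells with the KO label (1.27). The part of these cell types in the result was not tested, other than by leaving out cells rich in H2-Aa.

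The 10 other genes with the highest ratios in the WT top cells, chosen for those ratios, were Batf3, Jaml, Rnd3, Plbd1, Cd74, Upb1, H2-Aa, Ckb, Rab7b and Pid1. Batf3, a transcription factor of conventional dendritic cells, was at 41.5 CPM in WT top cells and 2.16 CPM in the rest (ratio 19.2), and at 19.7 and 1.28 CPM (15.5) in the KO-labelled library. Cd74, the invariant chain of MHC class II, was at 1686 and 120.3 CPM (14.0) and at 896 and 77.2 CPM (11.6). H2-Aa, an MHC class II chain, was at 556 and 44.4 CPM (12.5) and at 311 and 37.1 CPM (8.37). The other 7 had WT ratios from 11.7 to 15.8, and from 5.05 to 22.6 in the KO-labelled library. Cells with at least 3 H2-Aa UMIs were 330 of the WT cells (3.48%) and 319 of the KO-labelled cells (2.96%), and made up 19.5% and 12.4% of the top cells. Without them, 27 members passed in each library. These include Ifit3 and Ifi204 in both and Oas2 in WT, all under 5 CPM in the libraries as a whole. With the KO label they also include Ifi44, at 4.07 CPM in that library as a whole. The Procr class was marked by 15 of 31 members in WT and 12 of 31 with the KO label. Of these, 15 and 11 had also marked it with all cells. The share of all genes was not counted without these cells.

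Other genes of the pathway were taken from a list of 70, of which 69 were measured. Of the ligands, Ifnb1, Ifna1, Ifna2, Ifna4, Ifnl2 and Ifnl3 had 0 UMIs in both libraries, and Ifng had 6 UMIs in WT and 2 in the KO-labelled library. A count of 0 allows up to 3 UMIs, so interferon transcripts were not detectable or near the limit in these cells. Ifnar1 and Ifnar2, the type I receptor chains, were at 18.1 and 37.7 CPM in WT and at 21.9 and 46.7 CPM in the KO-labelled library. Of 35 listed genes at 20 CPM or more, 1 was at least 1.5-fold higher in the KO-labelled library and 1 at least 1.5-fold lower, with a median log2 ratio of 0.03. These shares are near those of all genes, 2.25% and 2.03%. The higher one was Ifngr1, the ligand-binding chain of the interferon gamma receptor, at 102 and 161 CPM (ratio 1.57, 1.54 to 1.61). The lower one was Ifitm1, a membrane protein that blocks virus entry, at 259 and 114 CPM (ratio 0.442, 0.433 to 0.451).

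Against Procr, 16 of 52 listed genes at 5 CPM marked the positive cells in WT, against 10.9% of all genes, and 20 of 54 in the KO-labelled library, against 10.4%. At least 1.5-fold lower were 1 and 2 of them, against 3.91% and 3.89%. With the KO label, Socs3 (4.09 CPM), Phf11b (4.80 CPM) and Oasl1 (4.96 CPM) were under the floor in the library as a whole. They entered the count only through the Procr class, where they were high. Among all genes at 5 CPM in the library as a whole, 7.8% in WT and 7.47% with the KO label marked the class. Ly6a, which encodes the Sca-1 antigen of the sort and is itself interferon-inducible, was at 141 CPM in Procr-positive and 25.1 CPM in other WT cells (ratio 5.59), and at 195 and 38.6 CPM in the KO-labelled library (5.06). Irf1, a transcription factor induced by interferon, was at 50 and 23.2 CPM (2.15) and at 49.6 and 25.8 CPM (1.92). Irf8, a myeloid and dendritic cell factor, went the other way, at 19.7 and 66.6 CPM (0.295) and at 17.4 and 68.3 CPM (0.255). Irf1 was thus higher in the Procr class in both libraries, and Irf8 lower.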

How the data were processed

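The authors deposited UMI counts for each gene in each barcode, and the submitters' processing notes name Cell Ranger 2.1.1 and mm10. The file headers name software version 3.1.0, and the kit was the 3′ v2 kit, per the labels' protocols, though the barcodes do not look like those of that kit. The use of strand in counting is not given here. Groups follow the genotype labels.

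Barcodes under 500 genes or over 10% mitochondrial UMIs were dropped (497 of 9969 in WT, 629 of 11398 with the KO label). No doublet caller was run. RNA from outside the cell was not estimated, so a class set by 1 UMI can hold cells that are positive through it. UMIs were summed over cells and scaled to CPM. Sums have exact Poisson, ratios exact conditional binomial and shares Clopper-Pearson intervals, at 95%, for counting error only. A count of 0 was set to 3 counts in ratios. Thinning drew 3000 UMIs per cell without replacement. No test was made, with 1 library per genotype. Male cells had UMIs of Y-linked genes and none of Xist. Female cells had more than 1 UMI of Xist and none of those Y-linked genes.

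The members and gene lists were chosen with earlier results of these data known. Class values are given for members that reach 20 CPM and for those marking Procr-positive cells. Of the pathway list, genes past 1.5-fold at 20 CPM were named along with Ifnar1, Ifnar2, Irf1, Irf8, Ly6a and 1 further gene, which is not reported here. Other genes named were the 10 with the highest ratio in WT top cells at 20 CPM or more. Other names and the printed promoters were chosen after their values were seen. Ratios and their intervals were tested on simulated counts. Alternatives concerned cell filters, scaling (including TMM of edgeR 4.0.16), floors, class thresholds and thinning. Those with Hlf, Mecom or Fgd5, without H2-Aa cells, without the 6 most abundant members, with a floor over the whole library, or within 5000 to 10000 UMIs were chosen after seeing the data. Scripts ran under Python 3.11.15 with scipy 1.17.1, pandas 2.3.3 and numpy 2.4.6, and figures were drawn with matplotlib 3.10.9.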

Additional observations from a re-analysis of the deposited data

How the results depend on the processing

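The count of members at least 1.5-fold higher in the KO-labelled library was 0 under each of the 11 alternatives run. The count at least 1.5-fold lower was 0 in the main analysis, 1 with totals that leave out ribosomal protein and mitochondrial genes, 1 with equal weight for 5 classes, 2 at a floor of 5 CPM and 3 with no floor beyond 3 counts. The median log2 ratio, 0.02 in the main analysis, was 0.0632 without the 5% deepest cells, 0.12 with TMM scaling, 0.0743 with totals without ribosomal protein and mitochondrial genes, -0.0265 at a floor of 5 CPM and -0.0350 with no floor. The ratio of the member sum, 1.01, was 1.04 with at least 1000 genes and at most 5% mitochondrial UMIs, 1.04 without the 5% deepest cells and 1.002 without Psmb8, and that of member UMIs per cell was 0.941 without thinning. The count of members marking Procr-positive cells, 16 in WT, was 10 with the stricter cell filter, 3 against cells negative for all 4 markers and 9 with Mecom at 3 UMIs in place of Procr. In the KO-labelled library the 12 became 7, 6 and, with Fgd5 in place of Procr, 5. Of these alternatives, the share of all genes was counted only against cells negative for all 4 markers. The share of member UMIs in the top 5% of cells was 13.7% and 13.6% with thinning to 1500 UMIs and 13.6% and 13.5% without the most abundant member. Iigp1 in the Car1 class had a ratio of 1.04 with Mpo and Car1 at 3 UMIs. Where no value above shows it, the cause was not tested. Over all alternatives, 65 values of the main results stayed the same, 22 moved and 1 reversed, and of the values for single genes 221 stayed the same, 44 no longer passed, 7 moved and 1 reversed.

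No paired analysis was possible because there was 1 library per genotype and the labels carry no replicate numbers. Animals, sorting and library preparation cannot be told apart from the genotype label, and sex only in part, by the ratios in male cells. Members under 5 CPM rest on few UMIs, and single-marker classes mix cell types and miss cells whose marker was not captured.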

Other observations

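Some values belong in no comparison above. Cxcl10, a chemokine gene induced by interferon and outside the list of 35, had a ratio of 28.5 in WT and 63.4 in the KO-labelled library between cells with the most member UMIs and the rest, at a library level of 1.78 and 2.29 CPM. In Procr-positive cells its ratio was 0.368 (0.146 to 0.772) and 0.652 (0.332 to 1.16), the latter with an interval that held 1. Ifi205 and Ifi207, p200 genes outside the list, had ratios of 21.5 and 14.8 in WT top cells. In Procr-positive WT cells Ifi205 had 0 UMIs and Ifi207 a ratio of 0.0698 (0.00176 to 0.395), and with the KO label Ifi207 had a ratio of 0.636 (0.252 to 1.34), an interval that held 1. The member Ifi203 had a Procr ratio of 1.85 in WT. These genes were chosen after their values were seen, and Cxcl10, Ifi205 and Ifi207 were all under 5 CPM in both libraries.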
